A study of Homo sapiens with 6 samples.

Results

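Aminoacyl-tRNA synthetases are the enzymes that join each amino acid to its transfer RNA, the charged form from which ribosomes build protein. The genes described here are the synthetase genes of the deposited table, taken by symbol (a single letter followed by ARS1 or ARS2, with EPRS1, FARSA and FARSB), and the scaffold genes AIMP1, AIMP2 and EEF1E1. That gave 40 of the 62703 genes listed, of which 20 encode cytosolic enzymes, 17 mitochondrial enzymes and 3 scaffolds. RNA was sequenced from the line 786-O, which was derived from a human renal carcinoma of the clear cell type and is known to lack functional VHL. The groups were 786-O cells overexpressing OGT (n = 3 libraries) and control 786-O cells (n = 3), both grown in RPMI-1640 with serum. The control cells were labelled WT and carry NC in their sample titles. OGT attaches O-linked N-acetylglucosamine to nuclear and cytosolic proteins. The sources used here do not give the vector or promoter behind the overexpression, or whether the cells were a clone or a pool.

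Human cells keep separate synthetases for cytosolic and for mitochondrial translation, and nuclear genes encode both sets. In the cytosol, several synthetases assemble with the scaffold proteins into the multisynthetase complex, while the others work free of it. Uncharged transfer RNA activates the kinase GCN2, which favours translation of the transcription factor ATF4, and many cytosolic synthetase genes are known ATF4 targets.

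Levels are in TPM, which corrects transcript abundance for transcript length and library total, and errors are SD over the 3 libraries of a group. Library totals lay between 993935.5 and 996951.6 TPM, and since TPM keeps no read total the depth is unknown. Genes at 1 TPM or more numbered 12743 to 12813 in the OGT libraries and 11885 to 12202 in the control libraries. OGT itself had 352.74, 352.92 and 270.87 TPM in OGT libraries, against 23.11, 22.57 and 23.62 TPM in control libraries (log2 change 3.75, limma adjusted p = 1.7e-05), with the groups far apart. The renal marker PAX8 was present, at 199 ± 13.4 TPM in OGT and 136 ± 9.72 TPM in control libraries. Of 11 markers of other cell types, CDH5 and ALB were listed at 0 in every library, and the lysosomal and macrophage marker CD68 was at 108 ± 10.1 TPM in OGT and 64.8 ± 3.68 TPM in control libraries. The leukocyte gene PTPRC was listed at 0 in each OGT library, against 12.23, 0.06 and 0.07 TPM in control libraries. The part of these markers in the results was not tested.

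Each log2 change is the mean of log2(TPM + 1) with OGT overexpression minus that in control cells, and was tested with limma over 12645 genes with Benjamini-Hochberg adjustment, and a gene is said to rise or fall at an adjusted p below 0.05. All 40 genes passed the filter on low values. With OGT overexpression 21 of the 40 rose and 6 fell, and 13 were not called. Among all tested genes 48.8% were called, with 39.1% that rose and 9.7% that fell. The median log2 change was 0.34 over the 40 genes and 0.30 over all tested genes, which are close. The groups did not overlap in 23 genes that were higher and 8 that were lower with OGT overexpression, against 46.2% and 12.4% of all tested genes. Cytosolic genes rose in 13 of 20 cases and fell in 3, with a median log2 change of 0.42. Without GARS1 and KARS1, which also encode the mitochondrial enzymes, 12 of 18 rose and 3 fell. Mitochondrial genes rose in 6 of 17 cases and fell in 3, with a median of 0.12. The difference between these classes was not tested, and these counts move with the scaling, as given further on.

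**Figure D1:**
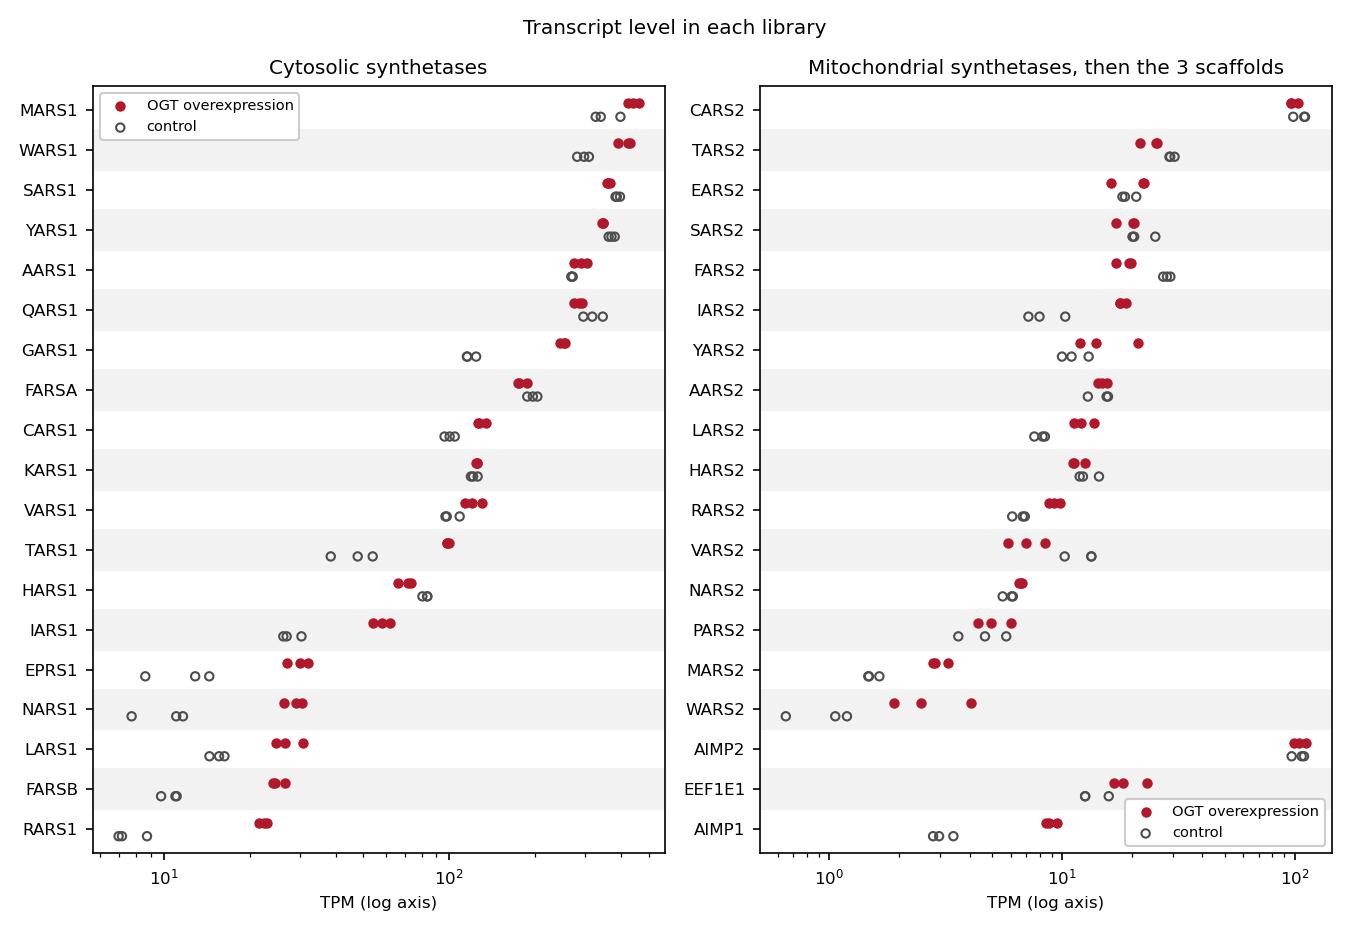
Transcript level in TPM (log axis) of 38 of the genes in each of the 6 libraries, with filled points for OGT overexpression and open points for control. Cytosolic genes lie mostly above mitochondrial genes, and wide gaps between the groups are seen at the low end of the cytosolic genes, among them RARS1, NARS1 and FARSB.

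The multisynthetase complex holds 8 of the cytosolic synthetases and the 3 scaffolds. Of these 11 genes 8 rose and 0 fell by limma, with 1 lower at an unadjusted p below 0.05 (QARS1), beside 39.1% and 9.7% of all tested genes. The median log2 change was 0.78, beside 0.30 for all genes. RARS1, the arginyl-tRNA synthetase gene (chr5:168486445-168519299, plus strand, GENCODE release 29 on GRCh38), had 22.41, 22.91 and 21.52 TPM in OGT libraries, against 8.74, 6.95 and 7.14 TPM in control libraries. Every OGT library was far above every control library, and the log2 change was 1.44 (SE 0.114, limma adjusted p = 0.000172). EPRS1, which carries the activities for glutamate and proline in a single chain, had 30.04, 27.03 and 32.08 TPM in OGT libraries, against 12.89, 14.44 and 8.62 TPM in control libraries (log2 change 1.27, limma adjusted p = 0.00154). Its control libraries varied more, but none reached the OGT range.

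IARS1, the isoleucyl-tRNA synthetase gene, rose to 58.2 ± 3.96 TPM in OGT libraries, against 27.8 ± 2.21 TPM in control libraries (log2 change 1.04). LARS1, which encodes the leucyl-tRNA synthetase, also described as a leucine sensor for mTORC1, rose to 27.4 ± 3.11 TPM in OGT libraries, against 15.5 ± 0.94 TPM in control libraries (log2 change 0.78). MARS1, for methionine, had the highest mean of the 40 genes with OGT overexpression and rose to 441 ± 19.4 TPM in OGT libraries, against 354 ± 38.2 TPM in control libraries (log2 change 0.32, limma adjusted p = 0.0138). Its call was lost without OGT replicate 1 (limma adjusted p = 0.0503), and its log2 change was -0.07 after median centring. KARS1, for lysine, was not called, with 125 ± 0.668 TPM in OGT and 122 ± 3.38 TPM in control libraries (log2 change 0.03, limma adjusted p = 0.587). QARS1, for glutamine, was not called either, with 283 ± 9.48 TPM in OGT and 319 ± 25.1 TPM in control libraries (log2 change -0.17, limma adjusted p = 0.0601). Without control replicate 3 QARS1 was called lower (limma adjusted p = 0.0234).

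The scaffolds, which hold the enzymes together, differed among themselves. AIMP1 had 9.46, 8.8 and 8.52 TPM in OGT libraries, against 2.96, 2.79 and 3.41 TPM in control libraries, with no overlap (log2 change 1.29, SE 0.14, limma adjusted p = 0.000497). EEF1E1, also known as AIMP3, had 18.19, 16.71 and 23.18 TPM in OGT libraries, against 15.85, 12.55 and 12.55 TPM in control libraries. Its groups lay close together (log2 change 0.47, limma adjusted p = 0.0386), and the call was lost without OGT replicate 1 or 3 or control replicate 2 or 3 (limma adjusted p = 0.0733 to 0.106). AIMP2 had 105 ± 6.42 TPM in OGT and 104 ± 6.65 TPM in control libraries, with overlapping groups (log2 change 0.01, limma adjusted p = 0.958, and -0.38 after median centring). A copy of AIMP1, AIMP1P2, had 2.67, 4 and 2.79 TPM in OGT libraries, against 8.33, 1.97 and 7.4 TPM in control libraries. The sources used here do not say how reads were divided between AIMP1 and this copy, so the size of the AIMP1 change is uncertain.

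Of the 12 cytosolic genes outside the complex 7 rose and 3 fell, beside 39.1% and 9.7% of all tested genes. Their median log2 change of 0.31 was close to the 0.30 of all genes. NARS1, the asparaginyl-tRNA synthetase gene (chr18:57600656-57622213, minus strand), had 26.33, 30.47 and 29.17 TPM in OGT libraries, against 7.72, 11.06 and 11.68 TPM in control libraries. The groups were well separated (log2 change 1.43, SE 0.157, limma adjusted p = 0.000536). GARS1, which encodes both the cytosolic and the mitochondrial glycyl-tRNA synthetase, had 254.43, 244.02 and 252.82 TPM in OGT libraries, against 115.31, 115.65 and 124.21 TPM in control libraries (log2 change 1.08, SE 0.0474, limma adjusted p = 3.45e-05). It had the smallest adjusted p of the 40 genes. TARS1, for threonine, had 97.91, 99.8 and 98.13 TPM in OGT libraries, against 53.94, 38.46 and 47.79 TPM in control libraries (log2 change 1.07, limma adjusted p = 0.000499). Its OGT libraries were nearly equal, while its control libraries were spread more widely and stayed below them.

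The cytosolic phenylalanyl-tRNA synthetase is built from alpha and beta chains, encoded by separate genes. FARSB, the beta subunit gene, had 24.23, 26.58 and 24.62 TPM in OGT libraries, against 9.79, 11.1 and 10.99 TPM in control libraries (log2 change 1.17, limma adjusted p = 0.000182). FARSA, the alpha subunit gene, had 186.73, 173.59 and 174.85 TPM in OGT libraries, against 187.57, 196.24 and 203.48 TPM in control libraries (log2 change -0.13, limma adjusted p = 0.0664). FARSB was clearly separated between the groups, while FARSA was not called although its groups just failed to overlap. Without control replicate 1 FARSA was called lower (limma adjusted p = 0.0475). The FARSA to FARSB ratio of TPM was 7.11 ± 0.588 in OGT and 18.5 ± 0.742 in control libraries.

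WARS1, the tryptophanyl-tRNA synthetase gene, which interferon is known to induce, rose to 414 ± 19.6 TPM in OGT libraries, against 295 ± 14 TPM in control libraries (log2 change 0.49). After median centring the WARS1 log2 change was 0.10, without a call (limma adjusted p = 0.26). CARS1, for cysteine, rose to 129 ± 4.59 TPM in OGT libraries, against 100.4 ± 4.13 TPM in control libraries (log2 change 0.36), and its log2 change was -0.02 after median centring. VARS1, for valine, rose to 122 ± 8.24 TPM in OGT libraries, against 101 ± 6.51 TPM in control libraries (log2 change 0.26, limma adjusted p = 0.0204), and its log2 change was -0.13 after median centring. The VARS1 call was lost without OGT replicate 1 or 2 or control replicate 1 or 2 (limma adjusted p = 0.0545 to 0.0678). AARS1, for alanine, had 289 ± 14.8 TPM in OGT and 269 ± 1.49 TPM in control libraries, a log2 change of 0.10 that was not called (limma adjusted p = 0.115) although the groups did not overlap. Without OGT replicate 3 AARS1 was called higher (limma adjusted p = 0.0319), while after median centring it was called lower.

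The free enzymes that fell did so by small amounts. HARS1, for histidine, fell to 70.5 ± 3.91 TPM in OGT libraries, against 82.7 ± 1.86 TPM in control libraries (log2 change -0.23, limma adjusted p = 0.0178), and the call was lost without control replicate 3 (limma adjusted p = 0.0514). SARS1, for serine, fell to 360.3 ± 3.82 TPM in OGT libraries, against 388 ± 7.26 TPM in control libraries (log2 change -0.11, limma adjusted p = 0.0363). YARS1, for tyrosine, fell to 344 ± 1.26 TPM in OGT libraries, against 370.4 ± 8.98 TPM in control libraries (log2 change -0.11, limma adjusted p = 0.0435). YARS1 lost its call whichever library was left out (limma adjusted p = 0.0622 to 0.106), and SARS1 unless that library was control replicate 1 (limma adjusted p = 0.0548 to 0.125).

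Most mitochondrial enzymes, which work in the matrix, had far lower transcript levels. IARS2, for isoleucine, had 17.78, 17.74 and 18.87 TPM in OGT libraries, against 10.31, 7.16 and 7.99 TPM in control libraries (log2 change 1.03, limma adjusted p = 0.00125). Every OGT library of IARS2 lay above every control library. LARS2, for leucine, rose to 12.4 ± 1.28 TPM in OGT libraries, against 8.09 ± 0.44 TPM in control libraries (log2 change 0.55). RARS2, for arginine, rose to 9.26 ± 0.527 TPM in OGT libraries, against 6.59 ± 0.433 TPM in control libraries (log2 change 0.43), and its log2 change was -0.02 after the GC and length correction described further on. MARS2 and WARS2, for methionine and tryptophan, had the lowest means of the 40 genes. MARS2 rose to 2.95 ± 0.239 TPM in OGT libraries, against 1.53 ± 0.0954 TPM in control libraries (log2 change 0.64), and WARS2 rose to 2.81 ± 1.11 TPM in OGT libraries, against 0.967 ± 0.282 TPM in control libraries (log2 change 0.92). At such levels the added 1 TPM understates a change. WARS2 lost its call without OGT replicate 1 or control replicate 2 (limma adjusted p = 0.0632 to 0.07), and RARS2 without OGT replicate 2 or control replicate 2 (limma adjusted p = 0.0647 to 0.0813). LARS2, RARS2, MARS2 and WARS2 were not called after quantile normalization, median centring or the GC and length correction.

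VARS2, FARS2 and TARS2 fell. VARS2, for valine, had 7.02, 5.85 and 8.45 TPM in OGT libraries, against 13.35, 10.25 and 13.34 TPM in control libraries (log2 change -0.72, SE 0.168, limma adjusted p = 0.0116). FARS2, the single-chain phenylalanyl-tRNA synthetase of mitochondria, had 17.01, 19.76 and 19.29 TPM in OGT libraries, against 28.18, 29.16 and 27.16 TPM in control libraries (log2 change -0.57, limma adjusted p = 0.00206). These were the deepest falls of the 40 genes, and in each the groups were apart. TARS2, for threonine, had 25.62, 25.32 and 21.59 TPM in OGT libraries, against 28.89, 29.12 and 30.39 TPM in control libraries (log2 change -0.28, limma adjusted p = 0.0369). It lost its call whichever library was left out (limma adjusted p = 0.0511 to 0.0963).

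The 8 mitochondrial genes without a call had log2 changes from -0.18 (SARS2) to 0.41 (YARS2). CARS2, the most abundant mitochondrial enzyme gene, was among them, with 98.5 ± 3.61 TPM in OGT and 106 ± 6.77 TPM in control libraries. YARS2 had 14.02, 11.9 and 21.2 TPM in OGT libraries, against 9.98, 12.99 and 10.97 TPM in control libraries, and its OGT replicate 3 stood above the rest. The log2 change was 0.02 for AARS2, 0.07 for EARS2, 0.12 for PARS2 and 0.14 for NARS2, and each of these was negative after quantile normalization, median centring and the GC and length correction, though in PARS2 by only -0.0018 after the last of these. HARS2 had a log2 change of -0.13.

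Summed over genes, the cytosolic enzymes came to 3307 ± 79.8 TPM in OGT and 2851 ± 19.6 TPM in control libraries, with no overlap. The mitochondrial enzymes came to 303 ± 2.21 TPM in OGT and 299 ± 5.68 TPM in control libraries, with overlapping ranges. Both sums are of the deposited values, in which abundant genes weigh most, and were not computed under another scaling. The median cytosolic gene stood at 123 TPM in OGT and 101 TPM in control libraries, and the median mitochondrial gene at 14.9 TPM in OGT and 11.3 TPM in control libraries. In bulk samples fewer cells of a type and less RNA per cell cannot be told apart.

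Cytosolic and mitochondrial genes for the same amino acid were also set against each other as ratios of TPM within a library, as a description with no test. The ratio of NARS1 to NARS2 was 4.31 ± 0.302 in OGT and 1.71 ± 0.279 in control libraries, with a GC content of 44.3% and 43.9%. The ratio of TARS1 (43.6% GC) to TARS2 (54.6%) was 4.1 ± 0.388 in OGT and 1.59 ± 0.273 in control libraries. That of RARS1 (41.4%) to RARS2 (41.9%) was 2.41 ± 0.128 in OGT and 1.15 ± 0.106 in control libraries. In these pairs the cytosolic transcript was higher relative to the mitochondrial one in every OGT library. For EPRS1 (43.2% GC) and EARS2 (51.6%) the ratio was 1.51 ± 0.414 in OGT and 0.626 ± 0.166 in control libraries, so EPRS1 was the more abundant in OGT libraries and EARS2 in control libraries. The methionine and tryptophan pairs went the other way, with MARS1 (53.7% GC) to MARS2 (48.4%) at 151 ± 17.7 in OGT and 231 ± 10.6 in control libraries. WARS1 (51.8% GC) to WARS2 (42.4%) was 162 ± 58.2 in OGT and 330.1 ± 127.0 in control libraries, with wide spread and no overlap. For isoleucine the ratio of IARS1 (43.6% GC) to IARS2 (43.8%) was 3.22 ± 0.317 in OGT and 3.37 ± 0.715 in control libraries, with overlapping groups, and the alanine, histidine, leucine, serine and tyrosine pairs overlapped too. The ratio of VARS1 (62.6% GC) to VARS2 (60.2%) was 17.6 ± 4.42 in OGT and 8.33 ± 1.16 in control libraries, without overlap. Ratios were also higher without overlap in OGT libraries for CARS1 to CARS2 (1.32 against 0.95) and EPRS1 to PARS2 (5.94 against 2.65). The same held for FARSA to FARS2 (9.61 against 6.96) and FARSB to FARS2 (1.35 against 0.378).

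**Figure D2:**
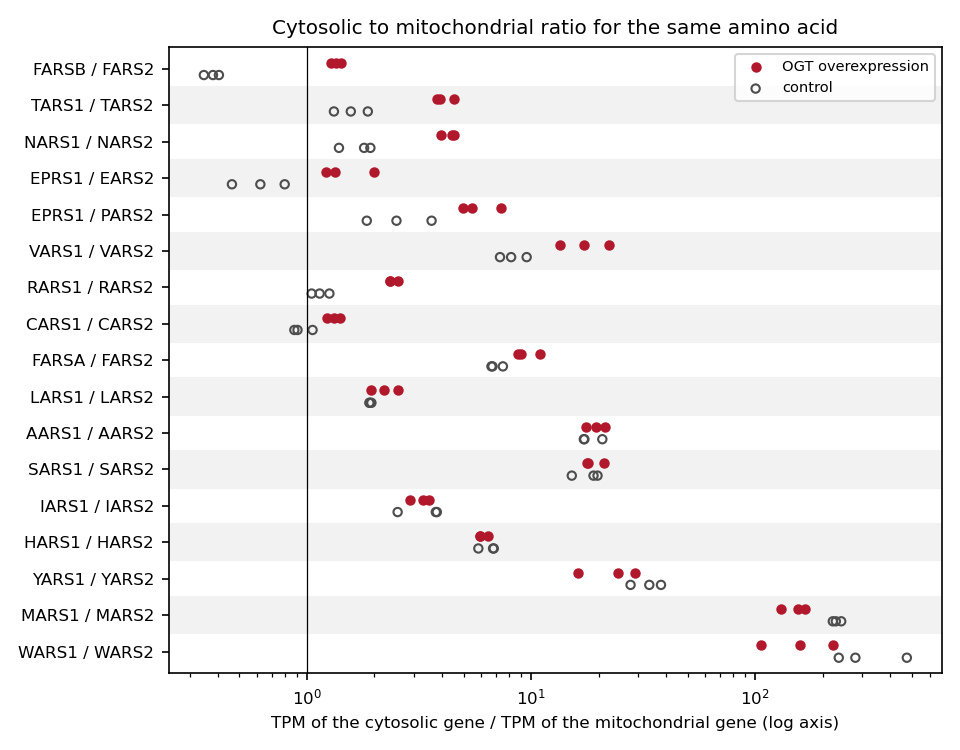
Ratio of cytosolic to mitochondrial TPM for the same amino acid in each library (log axis), with filled points for OGT overexpression and open points for control, and a line at a ratio of 1. The NARS, TARS and RARS ratios are higher in every OGT library than in any control library, while the MARS and WARS ratios are lower and the IARS ratios overlap.

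The change of a gene was related to its base composition, taken from the longest protein-coding transcript in GENCODE release 29. Across the 40 genes, which share the same 6 libraries and are not independent replicates, the Spearman correlation of log2 change with GC content was -0.76 (Pearson -0.75). It was -0.47 across the 12348 tested genes with annotation. Within classes it was -0.73 for cytosolic and -0.81 for mitochondrial genes. The change was also related to the mean log2 level, with a Spearman correlation of -0.73 for cytosolic genes (Pearson -0.80), -0.55 for mitochondrial genes and -0.17 for all tested genes. Of the 15 members with at most 45% GC, 14 rose and 0 fell by limma (also 0 at an unadjusted p below 0.05), with a median log2 change of 1.07, and the gene that was not called was NARS2. Among all tested genes in that range 55.7% rose and 2.82% fell, with a median of 0.70. Of the 14 members above 52% GC, 3 rose and 4 fell, with a median of -0.10, against 24.6% and 16.9% of all tested genes in that range, with a median of 0.07. These ranges were chosen after the values were seen. GARS1, at 48.6% GC, was the member above the low range with a log2 change over 1.

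**Figure D3:**
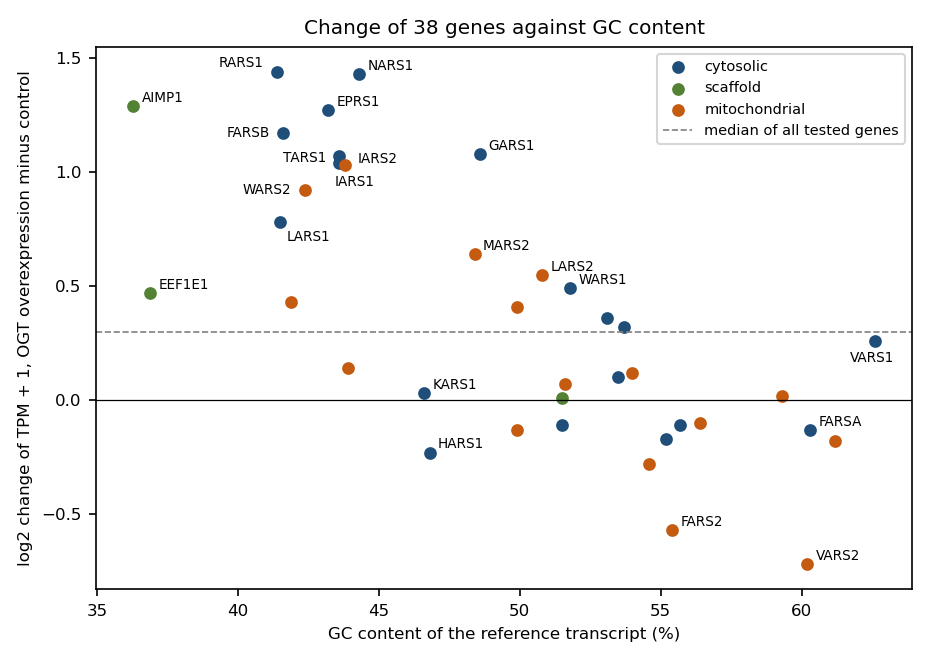
Log2 change of TPM + 1, OGT overexpression minus control, against GC content of the reference transcript in percent, with 1 point for each of 38 genes, coloured by class, and a dashed line at the median of all tested genes (0.30). Changes are high at low GC (RARS1, NARS1, AIMP1) and low at high GC (VARS2, FARS2).

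Each gene was therefore also examined after quantile normalization, after median centring of each library, and after a correction that takes out, library by library, the trend with GC content and length. That correction left a Spearman correlation of change with GC content of -0.61 over the 40 genes (-0.58 for cytosolic and -0.61 for mitochondrial genes), against -0.03 over all tested genes, so the corrected values of the members still vary with GC content. Of the 21 genes that rose, 8 were called higher under all 4 scalings, among them RARS1, NARS1, FARSB, GARS1, TARS1, IARS1 and AIMP1. After the GC and length correction the log2 change was 0.92 for RARS1, 0.84 for NARS1 and 0.73 for AIMP1. It was 0.72 for GARS1, 0.50 for FARSB, 0.38 for TARS1 and 0.33 for IARS1. All 6 genes that fell were called lower under all 4 scalings, although SARS1, YARS1, TARS2 and HARS1 lost their calls in at least 1 of the fits that leave out a library, as given above. The other scalings lowered the median log2 change of all genes from 0.30 to 0.02, -0.09 and 0.03, in the order named. A lower call is therefore kept more easily than a higher one. The share of all tested genes that kept a call was not computed. The corrected log2 changes of the 6 genes were -0.89 for VARS2, -0.75 for HARS1, -0.54 for FARS2, -0.43 for TARS2, -0.29 for YARS1 and -0.23 for SARS1.

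After the correction 0 of the 17 mitochondrial enzymes rose by limma, with 2 higher at an unadjusted p below 0.05. IARS2 kept a log2 change of 0.38 (limma adjusted p = 0.0588). EPRS1 (0.54, limma adjusted p = 0.08) and LARS1 (0.03, limma adjusted p = 0.796) were no longer called. KARS1 was called lower, at -0.39 (limma adjusted p = 0.00142).

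The class counts moved with the scaling. With quantile normalization 12 cytosolic genes were called higher and 4 lower, against 9 and 7 after median centring, and 9 and 6 after the correction. With quantile normalization 2 mitochondrial genes were called higher and 6 lower, against 2 and 7 after median centring, and 0 and 5 after the correction. Of all tested genes 20.2% were called higher and 17.8% lower under quantile normalization, 15.3% and 24.2% after median centring, and 15.6% and 11.9% after the correction. In either direction 38.0%, 39.6% and 27.5% of all tested genes were called, in that order of scalings. The median log2 change of all genes was 0.02, -0.09 and 0.03 in that order of scalings. After the correction the median was 0.14 for cytosolic and -0.09 for mitochondrial genes. In the complex 7 genes were called higher and 0 called lower with quantile normalization, 6 and 3 after median centring, and 4 and 2 after the correction. The 12 free cytosolic genes had 6 and 4, 4 and 5, and 6 and 4 in that order. After the correction the median was 0.17 for the complex and 0.13 for the free cytosolic genes, which are close.

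**Figure D4:**
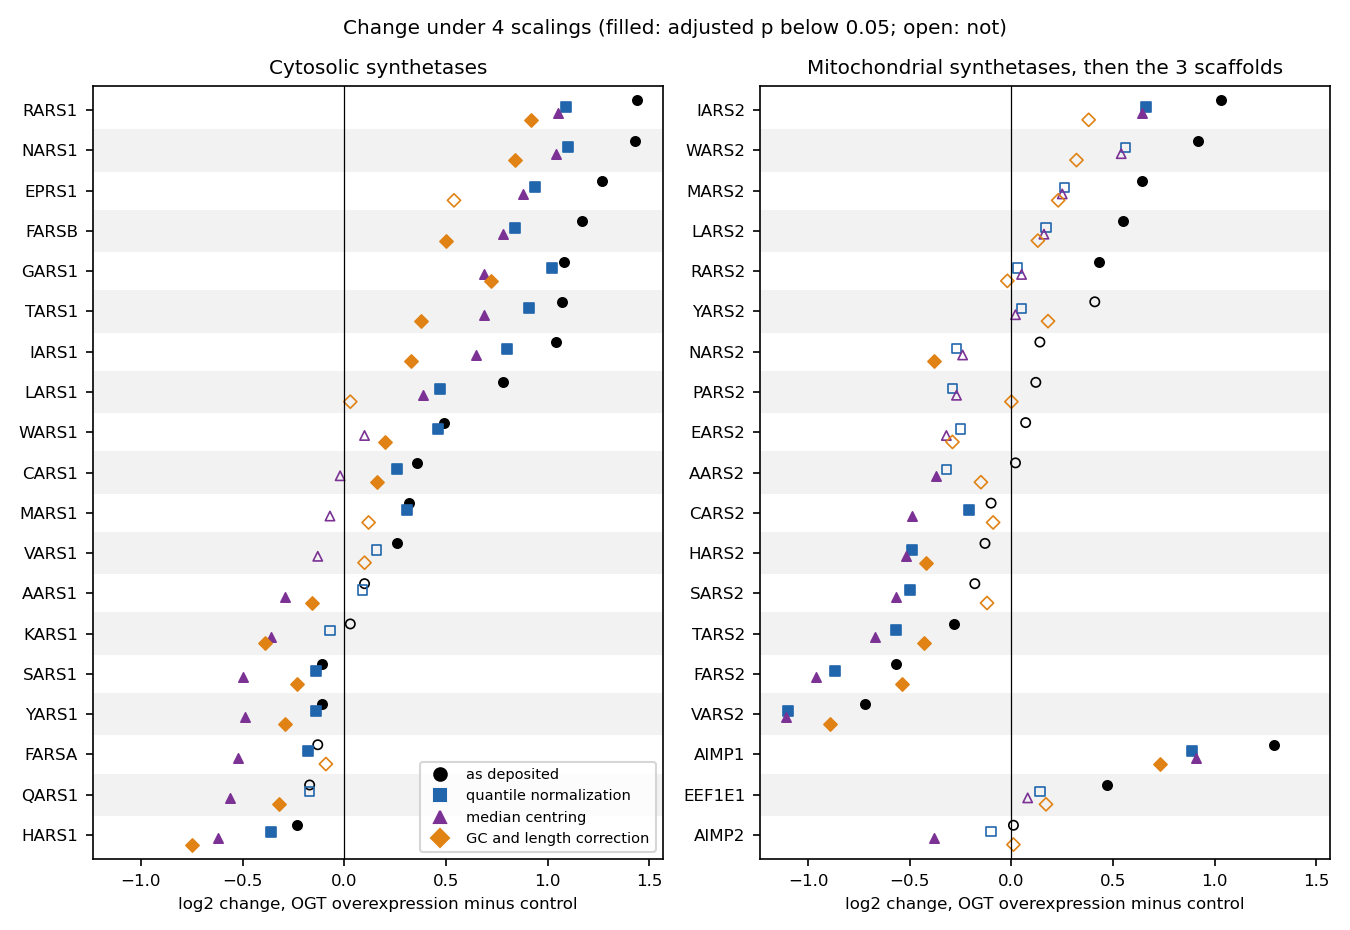
Log2 change, OGT overexpression minus control, of 38 of the genes under 4 scalings, with filled symbols for an adjusted p below 0.05 and open symbols for the rest. RARS1, NARS1, FARSB, GARS1, TARS1, IARS1 and AIMP1 are filled and right of 0 under each, and VARS2, FARS2, TARS2, HARS1, SARS1 and YARS1 are filled and left of 0 under each.

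Promoter sequence, 250 bases before to 50 after the start of each gene (300 bases), was matched by symbol in RefSeq (GRCh38.p14) for 33 of the 40 genes. Genes with no entry included AARS2, LARS1, VARS1, VARS2 and YARS1. The core of the C/EBP-ATF response element, which ATF4 is known to bind in amino acid response genes, was searched as TGATGNAA on both strands. It was in 7 of the 33 promoters (21.2%), against 3.67% of all 27305 promoters of that length. The matches are shown on the strand of the gene with 10 flanking bases on each side and the motif in capitals, because they let the shared letters of the cytosolic genes be seen beside the variant in YARS2.
AARS1 (chr16:70289676-70289703, minus strand): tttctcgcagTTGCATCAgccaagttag
CARS1 (chr11:3057408-3057435, minus strand): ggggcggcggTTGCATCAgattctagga
IARS1 (chr9:92293693-92293720, minus strand): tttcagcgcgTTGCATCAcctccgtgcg
MARS1 (chr12:57488054-57488081, plus strand): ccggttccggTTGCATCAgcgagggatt
NARS1 (chr18:57621805-57621832, minus strand): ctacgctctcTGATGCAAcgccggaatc
TARS1 (chr5:33440957-33440984, plus strand): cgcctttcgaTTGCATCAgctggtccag
YARS2 (chr12:32756077-32756104, minus strand): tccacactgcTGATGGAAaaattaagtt

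Of these 7 genes CARS1, IARS1, MARS1, NARS1 and TARS1 rose, and AARS1 and YARS2 were not called. After median centring the log2 change was -0.02 in CARS1 and -0.07 in MARS1. Of the 26 other genes with a promoter 12 rose and 4 fell, beside 39.1% and 9.7% of all tested genes. After the GC and length correction 4 of the 7 genes were higher and 1 lower, and 5 of the other 26 were higher and 8 lower. Of all tested genes 15.6% were higher and 11.9% lower after that correction. The difference between genes with and without a match was not tested. A match is a string of letters in a window and does not show binding.

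HARS1 and HARS2, for histidine in the cytosol and in mitochondria, lie head to head on chromosome 5 with 84 bases between their RefSeq starts. HARS2 had 11.6 ± 0.762 TPM in OGT and 12.9 ± 1.35 TPM in control libraries, without a call (log2 change -0.13, limma adjusted p = 0.378), beside the fall of HARS1. After the GC and length correction both were called lower, HARS1 at -0.75 (limma adjusted p = 0.000221) and HARS2 at -0.42 (limma adjusted p = 0.0398). Of the 84 bases, 83 are shown on the HARS2 strand because the pair shares them (the base next to the HARS1 start is left out), with the ETS core ACTTCCGG and its reverse complement in capitals. The gene bodies overlap in the annotation and the strand of the libraries is not stated, so reads of the pair may not be separable.
HARS2 (chr5:140691372-140691454, plus strand): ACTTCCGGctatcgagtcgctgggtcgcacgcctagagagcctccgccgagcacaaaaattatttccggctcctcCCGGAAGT

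The ETS core was in 7 of the 33 promoters (CARS1, EARS2, HARS1, HARS2, NARS1, PARS2 and WARS1), against 4.44% of all promoters. HARS1 and HARS2 share the same sites in the stretch between them, so these sites are counted in both promoters. The E-box CACGTG, bound by MYC and related factors, was in 4 (CARS2, EARS2, IARS1 and MARS2), against 7.44% of all promoters. The core for NRF1, a regulator of nuclear genes for mitochondrial proteins, was in 1 of the 33 promoters, that of MARS2, against 1.36% of all promoters. All were searched on both strands.

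Related gene lists were read from the same fit. Of 32 tested amino acid response genes, many of them known ATF4 targets, 20 rose and 2 fell, beside 39.1% and 9.7% of all tested genes, with a median log2 change of 0.29 beside 0.30 for all genes. After median centring 7 were higher and 12 lower, beside 15.3% and 24.2% of all tested genes. After the GC and length correction 14 were higher and 2 lower, beside 15.6% and 11.9% of all tested genes. ATF4, named after its value was seen, had 581 ± 9.01 TPM in OGT and 567 ± 13.2 TPM in control libraries (log2 change 0.04, limma adjusted p = 0.409). SLC38A2, a neutral amino acid transporter gene, had 36.86, 37.47 and 37.48 TPM in OGT libraries, against 9.26, 9.48 and 11.33 TPM in control libraries (log2 change 1.80). ASNS, the asparagine synthetase gene, rose to 196 ± 7.95 TPM in OGT libraries, against 135 ± 4.13 TPM in control libraries (log2 change 0.54). PSAT1, of serine synthesis, rose to 153 ± 5.54 TPM in OGT libraries, against 91.1 ± 1.83 TPM in control libraries (log2 change 0.74). DDIT4, an inhibitor of mTORC1 signalling, rose to 773 ± 7.51 TPM in OGT libraries, against 552 ± 2.87 TPM in control libraries (log2 change 0.48). After median centring ASNS and DDIT4 were not called.

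Of 16 genes of the GCN2 and eIF2 alpha control list, 10 rose and 0 fell by limma (also 0 lower at an unadjusted p below 0.05), beside 39.1% and 9.7% of all tested genes. After median centring 5 were higher and 5 lower, beside 15.3% and 24.2% of all tested genes. After the GC and length correction 5 were higher and 3 lower, beside 15.6% and 11.9% of all tested genes. EIF2AK2, the kinase PKR, had 17.77, 19.7 and 22.41 TPM in OGT libraries, against 5.05, 4.15 and 5.19 TPM in control libraries (log2 change 1.85). EIF2AK4, which encodes GCN2 and was named after its value was seen, rose to 14.2 ± 1.4 TPM in OGT libraries, against 6.62 ± 0.639 TPM in control libraries (log2 change 0.99, and 0.40 without a call after the GC and length correction). The eIF2 subunit genes EIF2S2 and EIF2S3 rose, with log2 changes of 1.28 and 1.27, and so did the haem-regulated kinase gene EIF2AK1 (0.81). The gene of the alpha subunit, EIF2S1, named after its value was seen, had 87.8 ± 4.14 TPM in OGT and 101 ± 20.7 TPM in control libraries and was not called (log2 change -0.18, limma adjusted p = 0.344). It was called lower after median centring (-0.57) and after the GC and length correction (-0.93, limma adjusted p = 0.00624).

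Of 10 cytosolic elongation factor genes 4 rose and 3 fell, beside 39.1% and 9.7% of all tested genes. After the GC and length correction 2 were higher and 5 lower, beside 15.6% and 11.9% of all tested genes. EEF1A1, whose product carries charged transfer RNA to the ribosome, rose to 2528 ± 9.02 TPM in OGT libraries, against 1182 ± 21.3 TPM in control libraries (log2 change 1.10). Genes of its exchange factor fell, with EEF1B2 at 427 ± 30.4 TPM in OGT libraries, against 735 ± 51.1 TPM in control libraries (log2 change -0.78) and EEF1G at 2457 ± 53.5 TPM in OGT libraries, against 3438 ± 79.4 TPM in control libraries (log2 change -0.48). EIF5A rose, with a log2 change of 0.34 that was -0.05 after median centring.

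Of 13 mitochondrial translation factor genes 3 rose (23.1%) and 1 fell (7.69%), beside 39.1% and 9.7% of all tested genes. Only 6 of the 13 had a mean of at least 5 TPM. GFM1, the mitochondrial elongation factor G1 gene, rose to 13.3 ± 0.713 TPM in OGT libraries, against 3.56 ± 0.214 TPM in control libraries (log2 change 1.65). MTRF1L, a release factor gene, and MTIF2, an initiation factor gene, rose with log2 changes of 1.41 and 1.13. MTIF2 was not called after quantile normalization, median centring or the GC and length correction (limma adjusted p = 0.0839, 0.0715 and 0.181). GATB, a subunit gene of the amidotransferase that makes glutamine-charged transfer RNA in mitochondria, fell to 13 ± 0.577 TPM in OGT libraries, against 18.4 ± 0.651 TPM in control libraries (log2 change -0.47).

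Of 22 tested transfer RNA partner genes 6 rose and 5 fell, beside 39.1% and 9.7% of all tested genes, and the list was 2 higher and 5 lower after the GC and length correction. XPOT, the nuclear export receptor for transfer RNA, rose to 17.2 ± 1.07 TPM in OGT libraries, against 5.38 ± 0.528 TPM in control libraries (log2 change 1.51). PPA1, an inorganic pyrophosphatase gene, rose to 39.4 ± 4.03 TPM in OGT libraries, against 21.3 ± 0.514 TPM in control libraries (log2 change 0.86). DTD1, a D-aminoacyl-tRNA deacylase gene, fell to 61.2 ± 3.98 TPM in OGT libraries, against 96.6 ± 5.45 TPM in control libraries (log2 change -0.65), and PTRHD1 fell to 22.1 ± 0.913 TPM in OGT libraries, against 38.4 ± 0.559 TPM in control libraries (log2 change -0.77).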

How the data were processed

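The authors deposited TPM per gene for 62703 human gene identifiers, with 1 column per library, and 0 columns of other samples. Per the submitters' processing notes the builds were GRCm38 and mm10, which are mouse builds. The sources used here do not give the aligner, the counter or the annotation. Groups and replicate numbers came from the sample labels. Nothing states that replicates were separate cultures, so p-values measure the spread between these libraries, which may be technical. The fit took the 12645 genes that reached 1 TPM in 3 or more libraries and used limma 3.58.1 under R 4.3.3 on log2(TPM + 1) values (eBayes with trend and robust, two-sided, Benjamini-Hochberg over all tested genes, threshold 0.05). The method was tested on simulated data that held no general shift and no trend with GC content. Those data do not bear on the choice of scaling. The GC and length correction removed natural splines with 4 degrees of freedom on GC content and log2 length from each library (12348 genes). Members, lists, motifs and tests were chosen with earlier results of these data known. Named genes were all members, OGT and, in each related list, up to 4 called genes with the smallest adjusted p. Counts cover all 40 members, of which 2 are not reported here one by one or drawn. Same-numbered libraries were not taken as pairs, since the correlations of their deviations were -0.0194, 0.00264 and 0.0166. Count models were not run, since TPM are not counts.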

Additional observations from a re-analysis of the deposited data

How the results depend on the processing

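OGT was called higher under every alternative that kept it. With all genes, 2558, 1937 and 1922 were called higher after quantile normalization, median centring and the GC and length correction, and 2245 and 3066 lower after the first and second of these. Members called higher numbered 12 after median centring and 10 after the correction. Members called lower numbered 10 after quantile normalization, 15 after median centring, 11 after the correction, 3 without a filter, and 3 to 5 when 1 library was left out. Cytosolic genes called lower numbered 7 after median centring, 6 after the correction, 1 without a filter and 1 to 3 when 1 library was left out. Of all tested genes 9.7% were lower in the main fit, 3.82% without a filter and 7.82% to 8.91% when 1 library was left out. Mitochondrial genes called higher numbered 2, 2 and 0, and lower 6, 7 and 5, under quantile normalization, median centring and the correction. The complex had 4 genes higher and the free cytosolic genes 6 after the correction, against 6 and 4 after median centring. Mitochondrial translation factors had 2 calls with a mean of at least 5 TPM, and transfer RNA partners 7 after the correction.

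With the replicate number as a block, 4382 genes were called higher and 1091 lower, and 17 and 4 of the members, and 1 of 6 libraries correlated best with its own number. With the block and the correction together, 1366 genes (11.1%) were higher and 1116 (9.04%) lower. Under that fit 6 of the 40 members (15.0%) were higher and 6 lower. Of the classes, 5 cytosolic, 0 mitochondrial, 3 complex and 3 free cytosolic genes were higher, and 5 cytosolic and 1 mitochondrial were lower. The calls were 11 among amino acid response genes, 2 among mitochondrial translation factors and 5 among transfer RNA partners.

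The log2 change turned negative after quantile normalization in AARS2 (-0.32), AIMP2 (-0.10), EARS2 (-0.25), KARS1 (-0.07), NARS2 (-0.27) and PARS2 (-0.29). After median centring it did so in AARS1 (-0.29), AARS2 (-0.37), AIMP2 (-0.38), CARS1 (-0.02), EARS2 (-0.32), KARS1 (-0.36), MARS1 (-0.07), NARS2 (-0.24), PARS2 (-0.27) and VARS1 (-0.13). After the correction, with and without the block, it did so in AARS1 (-0.16), AARS2 (-0.15), EARS2 (-0.29), KARS1 (-0.39), NARS2 (-0.38), PARS2 (-0.0018) and RARS2 (-0.02). With 1 library left out the sign varied in AARS2 (-0.07 to 0.07, with -0.01 in between), AIMP2 (-0.05 to 0.05, with -0.04 in between), EARS2 (-0.01 to 0.21, with -0.0049 in between) and PARS2 (-0.03 to 0.25). The cause was not tested. Depth is unknown from TPM, so its limit on scarce genes could not be measured.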

Other observations

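In 18 members a gene on the opposite strand starts within 1000 bases, and of the 16 such neighbours tested 6 were called higher and 2 lower by limma. These shares are close to the 39.1% and 9.7% of all tested genes. HARS1, called lower, and HARS2 are members and are counted here as neighbours of each other. LYRM4, which starts 105 bases from FARS2, had a log2 change of 0.42 (limma adjusted p = 0.00972), against the fall of FARS2. GARS1-DT, which starts 128 bases from GARS1, had 6.31, 6.56 and 6.84 TPM in OGT libraries, against 3.06, 2.64 and 3.24 TPM in control libraries. MRPS12, 348 bases from SARS2, had a log2 change of -0.34 (limma adjusted p = 0.0128). The strand of the libraries is not stated, so overlapping pairs may share reads.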
